A study of Mus musculus with 16 samples.

Results

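The genes described here are 9 components of Wnt signalling, 6 secreted antagonists (Sfrp1, Sfrp2, Frzb, Dkk2, Dkk3 and Wif1), the receptor Fzd7, the cytoplasmic activator Frat1 and the transcription factor Tcf7l2. They were taken by platform gene symbol from an array table of 16 samples of 2 mouse small cell lung cancer lines, in which 12393 genes had a probe set with 1 symbol. All 18 probe sets of the 9 genes entered, each with 1 symbol, and 15 of them exceeded a log2 signal of 4 on at least 2 arrays. The 9 were chosen by looking at their measured values across the groups, so their values are a description. Where the number of them past a threshold or without overlap is given, it stands beside the share of all genes and nothing is read from it. The other genes of the pathway were listed by their known roles, though with earlier results of these data known, and were tested with that limit.

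The lines, 3583T3 and 3151T4, were each grown from a dissociated tumour. Per line there were untransfected control cells and cells stably carrying MSCV-Nfib-PGK-Neo (FLAG-tagged mouse Nfib, selected with G418), MSCV-L-myc-PGK-Puro (selected with puromycin; called Mycl1 here after the group names), or both vectors. Each of the 8 groups had 2 arrays, numbered replicates 1 and 2 in 3583T3 and replicates 3 and 4 in 3151T4. MSCV is a retroviral vector whose promoter is not tied to a cell type. The controls carried no vector, so vector and drug selection went together with the transgene. The labels do not say whether replicates were separate cultures, and p-values then measure only the spread between these arrays, which may be technical. The tumours' genotypes and the animals' ages are not given in the sources used here.

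Wnt ligands are secreted proteins that bind Frizzled receptors and the co-receptors Lrp5 and Lrp6. In the canonical branch this stops the Axin, Apc and Gsk3 complex from marking beta-catenin for destruction, and beta-catenin then joins TCF/LEF factors on target genes. Sfrp1, Sfrp2, Frzb and Wif1 bind Wnt proteins outside the cell, and Dkk proteins of the Dkk1 type block Lrp5 and Lrp6. In the lung the pathway takes part in airway and alveolar development and in repair.

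The labels were checked against the array signal before the genes were read. A Mycl probe set read between log2 9.08 and 11.05 on 7 of the 8 arrays labelled with the Mycl1 vector. The library labelled 3583T3 Nfib+Mycl1 replicate 2 read 2.67, and the library labelled 3583T3 Nfib replicate 2 read 10.22. Over all probe sets each of these 2 arrays correlated best with the first replicate of the other's group. They were kept as labelled, and the main differences that rest on them are also given without them. Of the markers of neuroendocrine cells, Chga, Chgb and Syp stayed at or under log2 4 on all 16 arrays, while Ncam1 read 11.52 to 12.37 and Uchl1 7.88 to 11.39.

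Markers of other cell types differed between the groups. The signal summed over 10 macrophage and leukocyte markers, on the log2 scale, was 12.63 to 13.34 in 3583T3 controls and 11.49 to 11.57 in 3151T4 controls. It was 6.03 to 6.40 in 3583T3 and 6.39 to 8.80 in 3151T4 with any vector. The sum over 10 fibroblast markers in 3583T3 was 12.65 to 13.06 in controls, 12.92 to 13.39 with Mycl1, 13.91 to 14.21 with Nfib and 14.03 to 14.19 with both, so that the Nfib-carrying arrays lay above the others. In 3151T4 it was 14.56 and 14.62 in controls, 15.16 to 15.28 with Nfib, 13.85 to 13.99 with Mycl1 and 14.20 to 14.46 with both. The lung epithelium list read 13.68 to 14.39 in 3583T3. In 3151T4 its group means were 10.92 in controls, 9.38 with Nfib, 10.95 with Mycl1 and 9.71 with both, with Sftpb, Scgb1a1 and Epcam at or under log2 4 throughout, and Cdh1, Krt8 and Krt18 carried it. Pecam1, Cdh5, Tek and Tie1, markers of endothelium, were at or under log2 4 on every array, while Kdr read 3.88 to 5.01 and Emcn 2.04 to 8.47. The sum over these 6 was highest on 3583T3 control replicate 2 (8.67) and was 5.44 and 5.45 with Nfib in that line. In such bulk samples fewer cells of a type and less RNA per cell cannot be told apart.

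**Figure D1:**
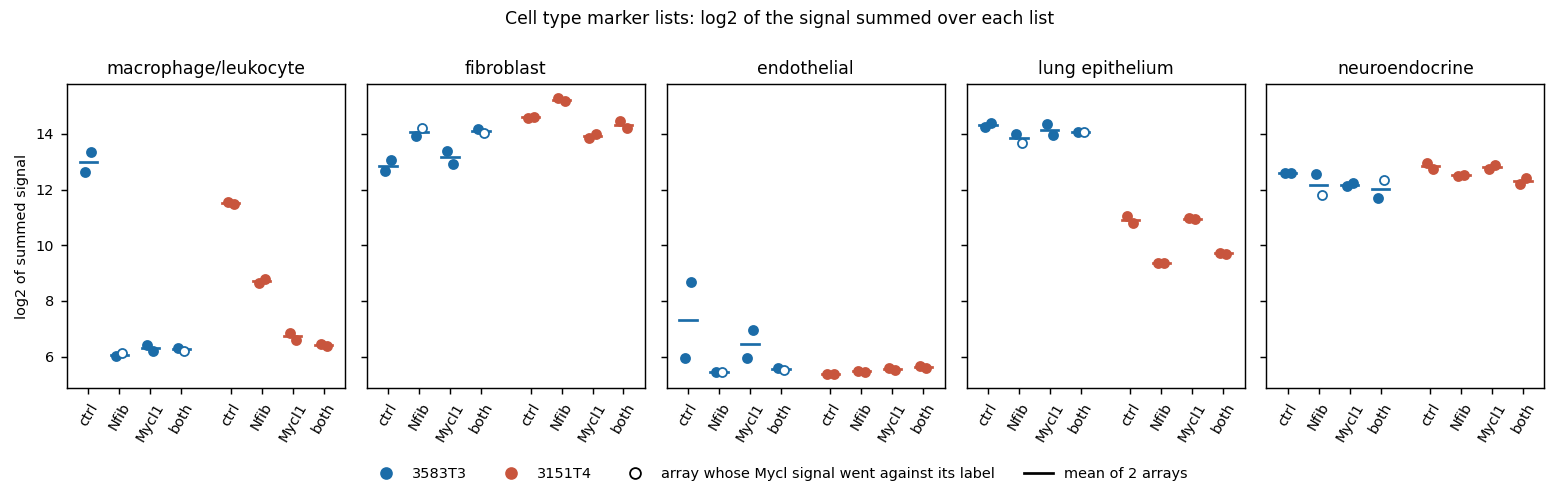
Log2 of the signal summed over each of 5 marker lists (vertical axis) on each of 16 arrays, by line and vector; points are arrays, bars are means of 2 arrays and open points are the 2 arrays whose Mycl signal went against their labels. The macrophage and leukocyte sum was 11.49 to 13.34 in the controls and 6.03 to 8.80 in the vector groups.

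Sfrp1, a secreted protein that binds Wnt ligands through a Frizzled-like domain, stood differently with each vector in the lines. In 3583T3 its log2 signals (probe set 1448395_at) were 2.97 and 3.49 in controls, 7.66 and 7.80 with Nfib, 3.21 and 3.03 with Mycl1, and 7.79 and 7.33 with both. The 4 Nfib-carrying arrays thus lay far above the 4 others, which were at or under log2 4, and the Mycl1 arrays overlapped the controls. In 3151T4 the signals were 7.29 and 6.62 in controls, 7.48 and 7.29 with Nfib, 4.72 and 4.96 with Mycl1, and 4.52 and 4.69 with both. There the controls were already high, Nfib alone overlapped them, and all 4 Mycl1-carrying arrays were lower.

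The log2 difference between Nfib and control cells was 4.50 ± 0.26 (SE, n = 2 against 2) in 3583T3, where the controls were under log2 4, and 0.42 ± 0.26 in 3151T4. With both vectors it was 4.33 ± 0.26 in 3583T3 and -2.35 ± 0.26 in 3151T4. Adding the Nfib vector to Mycl1 cells gave 4.44 ± 0.26 in 3583T3 and -0.24 ± 0.26 in 3151T4. In 3583T3, then, the Sfrp1 signal was high wherever the Nfib vector was, with or without Mycl1. In 3151T4 it was low wherever the Mycl1 vector was, with or without Nfib. Without the 2 doubted arrays the 3583T3 differences were 4.43 for Nfib, 4.56 for both vectors and 4.67 for both against Mycl1. The fibroblast marker sum in 3583T3 was also higher on all Nfib-carrying arrays, and its part in the Sfrp1 values was not tested.

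The other 3 Sfrp1 probe sets read lower and ran in parallel. Their Pearson correlations with one another and with 1448395_at lay between 0.90 and 0.98 over the 16 arrays, which share lines and vectors. The Nfib difference in 3583T3 was 2.19 on 1416594_at and 3.41 on 1460187_at. On 1438620_x_at, which did not pass the filter on low values, the 3583T3 control mean was 1.10 and the Nfib mean 2.64. The size of this difference therefore varied with the probe set, and the Nfib arrays lay above the controls on all 4.

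**Figure D2:**
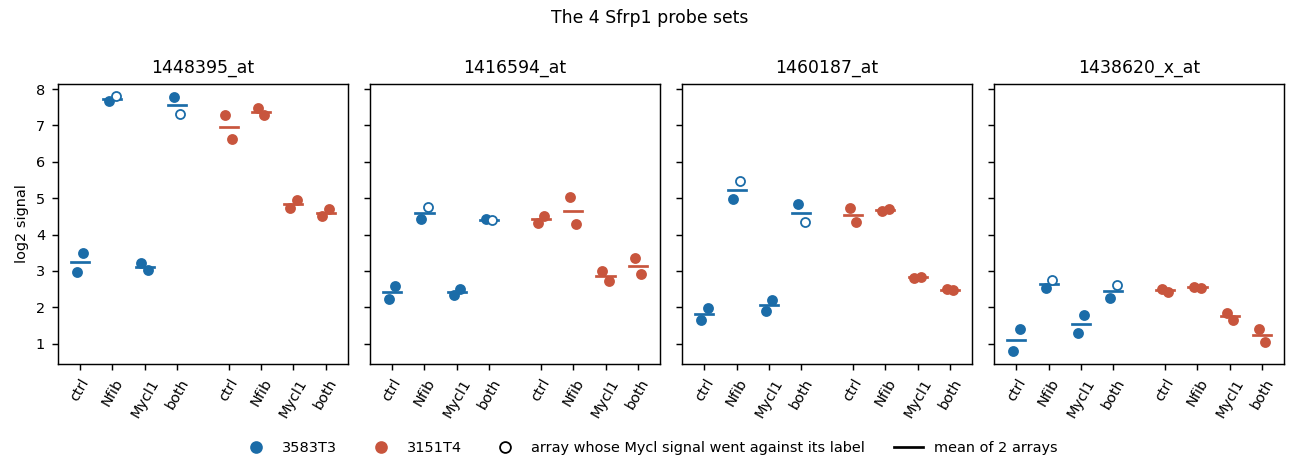
Log2 signal (vertical axis) of the 4 Sfrp1 probe sets on 16 arrays, by line and vector; points are arrays, bars are means of 2 arrays and open points are the 2 arrays whose Mycl signal went against their labels. On each probe set the Nfib-carrying arrays of 3583T3 lie above its controls, and the Mycl1-carrying arrays of 3151T4 lie below theirs.

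Sfrp2, a close relative of Sfrp1 with the same kind of Wnt-binding domain, was higher with the Nfib vector in both lines. Its signals in 3583T3 were 10.27 and 10.69 in controls, 11.75 and 11.71 with Nfib, 10.70 and 10.65 with Mycl1, and 11.92 and 12.11 with both. In 3151T4 they were 10.77 and 10.88 in controls, 12.05 and 12.08 with Nfib, 10.63 and 11.05 with Mycl1, and 12.27 and 12.11 with both. All 8 Nfib-carrying arrays lay above all 8 arrays without it, and the order of the 8 groups put the 4 Nfib-carrying groups first, with a gap of 0.89 to the next. The Mycl1 arrays overlapped the controls in each line.

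The Nfib difference of Sfrp2 was 1.25 ± 0.17 in 3583T3 and 1.24 ± 0.17 in 3151T4, and the difference between these was -0.01 ± 0.24. Over both lines it was 1.25 ± 0.11 (SE, n = 4 against 4). Between cells with both vectors and cells with Mycl1 alone it was 1.34 ± 0.11. Sfrp2 thus differed by a similar amount with and without Mycl1. Leaving out the doubted arrays gave 1.27 and 1.30. The macrophage and leukocyte markers were high in the controls, and their part in the Sfrp2 values was not tested. Of the fibroblast markers, 5 of 10 were higher in Nfib than in control cells over both lines and 2 of 10 were higher with both vectors than with Mycl1 alone (limma, adjusted p under 0.05), and their part in the Sfrp2 values was not tested.

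Dkk3, a member of the Dickkopf family whose role in Wnt signalling varies with the cell type, was higher with Nfib in 3583T3 and high throughout in 3151T4. In 3583T3 its signals were 6.16 and 5.81 in controls, 7.98 and 8.78 with Nfib, 7.46 and 6.42 with Mycl1, and 8.45 and 8.23 with both. In 3151T4 they were 10.42 and 10.40 in controls, 11.15 and 10.80 with Nfib, 8.99 and 9.26 with Mycl1, and 10.19 and 9.76 with both. No 3583T3 array reached any 3151T4 array. With Mycl1 alone the arrays lay above the controls in 3583T3 and below them in 3151T4.

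The Nfib difference of Dkk3 was 2.40 ± 0.32 in 3583T3 and 0.56 ± 0.32 in 3151T4. The Mycl1 difference was 0.95 ± 0.32 in 3583T3 and -1.28 ± 0.32 in 3151T4. Adding Nfib to Mycl1 cells gave 1.40 ± 0.32 and 0.85 ± 0.32, higher in each line. A second probe set, 1448669_at, correlated with the first at 0.995 over 16 arrays and gave Nfib differences of 2.91 and 0.58. Without the doubted arrays the 3583T3 differences were 2.00 for Nfib and 1.51 for both against Mycl1. The fibroblast marker sum had group means of 12.86 in controls, 14.06 with Nfib, 13.15 with Mycl1 and 14.11 with both in 3583T3, and of 14.59, 15.22, 13.92 and 14.33 in 3151T4. Dkk3 was thus high and low in the same groups as these markers, and their part in its values was not tested.

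Dkk2, a secreted ligand of Lrp6 that can act as an antagonist or a weak agonist, showed the largest fall from a control level among the 9 genes. In 3151T4 its signals were 8.71 and 8.60 in controls, 4.61 and 4.44 with Nfib, 5.73 and 5.71 with Mycl1, and 3.54 and 4.08 with both. Every vector group there lay below the controls, and the Nfib-carrying groups lay below Mycl1 alone. In 3583T3 the signals were 5.52 and 5.24 in controls, 7.16 and 5.45 with Nfib, 5.83 and 5.35 with Mycl1, and 6.44 and 7.29 with both. The Nfib and Mycl1 arrays each overlapped the controls in this line, and only the arrays with both vectors lay above them.

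In 3151T4 the Dkk2 difference from control was -4.14 ± 0.43 with Nfib, 17.6-fold lower, -2.94 ± 0.43 with Mycl1 and -4.84 ± 0.43 with both. In 3583T3 the same differences were 0.92 ± 0.43, 0.21 ± 0.43 and 1.49 ± 0.43. Without the doubted arrays they became 1.78 for Nfib and 1.06 for both vectors. The 2 arrays with the highest Dkk2 in this line, 7.16 and 7.29, were labelled Nfib replicate 1 and Nfib+Mycl1 replicate 2. Among the Nfib-carrying arrays of 3583T3 these were the ones with low Mycl signal. The controls, also low in Mycl signal, read 5.52 and 5.24 for Dkk2. Adding Nfib to Mycl1 cells gave -1.91 ± 0.43 in 3151T4 and 1.27 ± 0.43 in 3583T3, the latter 0.85 without the doubted arrays. The SD of the Nfib arrays was 1.21 in 3583T3 and 0.12 in 3151T4 (n = 2 each). The SE of 0.43, shared by all groups, shows neither spread. The macrophage and leukocyte sum was lower with each vector in each line, and its part in the Dkk2 values was not tested.

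Wif1 and Frzb, both Wnt-binding inhibitors, were detected in 1 line each. Wif1 exceeded log2 4 only on the 2 arrays of 3151T4 with Nfib, at 5.06 and 4.38. The other 3151T4 arrays read 3.27 and 3.76 in controls, 2.67 and 2.39 with Mycl1, and 2.82 and 2.49 with both. The 3583T3 arrays read 1.84 to 2.41. Cells of 3151T4 with both vectors were thus near the Mycl1 cells and below the Nfib cells, by -2.06 ± 0.25, while Nfib alone was above control by 1.20 ± 0.25.

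Frzb read 2.35 to 2.74 on all 8 arrays of 3151T4, under the filter's level of 4. In 3583T3 it was 3.08 and 4.08 in controls, 4.01 and 7.06 with Nfib, 4.05 and 5.51 with Mycl1, and 5.22 and 3.32 with both. The groups of 3583T3 overlapped one another, and the SD of the Nfib replicates was 2.16 (n = 2). The Nfib difference in 3583T3, 1.95 ± 0.78, was 0.42 without the doubted arrays. A second Frzb probe set, 1448424_at, did not pass the filter and correlated with the first at 0.956 over 16 arrays.

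Frat1, which binds Gsk3 and so favours beta-catenin, was higher with each vector than in controls. Its signals in 3583T3 were 4.01 and 3.98 in controls, 4.86 and 4.77 with Nfib, 4.90 and 4.71 with Mycl1, and 4.52 and 4.36 with both. In 3151T4 they were 4.00 and 3.67 in controls, 5.28 and 4.94 with Nfib, 4.46 and 4.29 with Mycl1, and 4.26 and 4.31 with both. Every vector array lay above every control array of its line, at signals close to the filter's level. Over both lines the differences from control were 1.04 ± 0.17 for Nfib, 0.67 ± 0.17 for Mycl1 and 0.45 ± 0.17 for both vectors. Cells with both vectors were lower than cells with Nfib alone by -0.60 ± 0.17. All 3 differences from control share the same 4 control arrays, on which the macrophage and leukocyte markers were high, and the part of those markers in the result was not tested.

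Fzd7, a Frizzled receptor found on many progenitor cells, was lower in 3151T4 wherever Mycl1 was present. Its signals there were 10.72 and 11.08 in controls, 11.04 and 11.46 with Nfib, 10.34 and 10.22 with Mycl1, and 9.73 and 9.98 with both. The 4 Mycl1-carrying arrays lay below the 4 others. In 3583T3 it read 11.15 and 10.89 in controls, 10.96 and 11.30 with Nfib, 10.72 and 11.21 with Mycl1, and 10.68 and 10.55 with both. Only the arrays with both vectors lay below the controls in that line. The difference of both vectors from Nfib alone was -1.40 ± 0.21 in 3151T4 and -0.52 ± 0.21 in 3583T3. Of these, the 3583T3 value rests on both doubted arrays and was -0.28 without them. A second probe set, 1450043_at, stayed under log2 4 on all arrays.

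Tcf7l2, a TCF factor that carries beta-catenin to target genes, varied least among the 9 between groups. Its signals in 3583T3 were 8.97 and 8.69 in controls, 9.39 and 9.33 with Nfib, 8.33 and 9.13 with Mycl1, and 8.72 and 8.80 with both. In 3151T4 they were 9.02 and 8.70 in controls, 9.02 and 9.25 with Nfib, 8.99 and 8.93 with Mycl1, and 8.50 and 8.71 with both. The Nfib mean stood highest in each line, by 0.53 ± 0.23 and 0.28 ± 0.23 over control. Cells with both vectors were lower than Nfib cells by -0.56 ± 0.17 over both lines. The other 3 probe sets of Tcf7l2 gave Nfib differences of 0.39 to 0.69 in 3583T3 and 0.31 to 0.69 in 3151T4, and correlations among the 4 probe sets ran from 0.28 to 0.87.

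**Figure D3:**
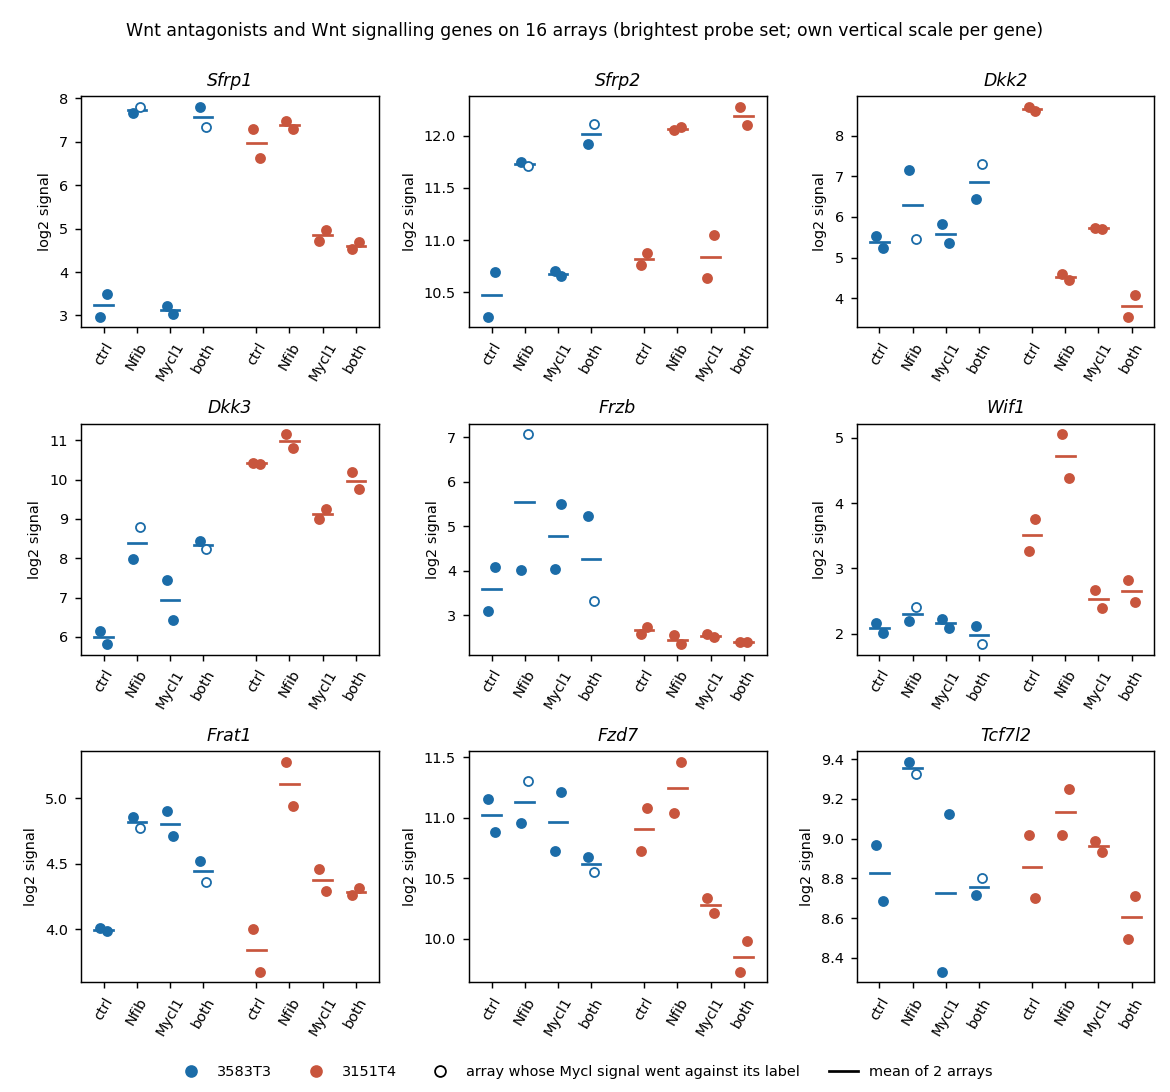
Log2 signal (vertical axis, own scale per gene) of the brightest probe set of each of the 9 genes on 16 arrays, by line and vector; points are arrays, bars are means of 2 arrays and open points are the 2 arrays whose Mycl signal went against their labels. Sfrp2 is above 11.7 on every Nfib-carrying array and under 11.1 on every other, whereas Sfrp1 and Dkk2 take different courses in the lines.

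Promoters are shown for Sfrp2 and Frat1, whose Nfib arrays lay above the controls in both lines, for Wif1, which exceeded log2 4 only with Nfib in 3151T4, and for Dkk2, which was lower with Nfib in that line. Nuclear factor I proteins such as Nfib recognise the motif TTGGC, often as an inverted pair, and Myc family proteins recognise the E-box CACGTG. Both strands of the 250 bases before each RefSeq start (GRCm38.p6) were searched for these and for CTTTGA, a core of TCF/LEF sites, with capitals marking the matches. The windows, each given 5′ to 3′ on the gene's strand, are chr3:83766071-83766320 (+) for Sfrp2, chr19:41829720-41829969 (+) for Frat1, chr10:121033754-121034003 (+) for Wif1 and chr3:132085042-132085291 (+) for Dkk2. The starts used were not always the first base of the RefSeq gene. The Sfrp2 gene begins at 83765750, before its window, and the Dkk2 gene at 132085266, within its window.
Sfrp2: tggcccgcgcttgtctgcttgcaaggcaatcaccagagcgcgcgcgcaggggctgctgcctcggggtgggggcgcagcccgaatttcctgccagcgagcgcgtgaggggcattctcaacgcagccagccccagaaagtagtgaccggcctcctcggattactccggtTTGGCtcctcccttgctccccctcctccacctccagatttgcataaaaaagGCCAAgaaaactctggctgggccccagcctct
Frat1: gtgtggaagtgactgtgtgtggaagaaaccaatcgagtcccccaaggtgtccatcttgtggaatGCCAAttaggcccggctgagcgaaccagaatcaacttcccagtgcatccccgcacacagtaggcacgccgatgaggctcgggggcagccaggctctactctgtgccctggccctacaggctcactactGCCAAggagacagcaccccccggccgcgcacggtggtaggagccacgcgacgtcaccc
Wif1: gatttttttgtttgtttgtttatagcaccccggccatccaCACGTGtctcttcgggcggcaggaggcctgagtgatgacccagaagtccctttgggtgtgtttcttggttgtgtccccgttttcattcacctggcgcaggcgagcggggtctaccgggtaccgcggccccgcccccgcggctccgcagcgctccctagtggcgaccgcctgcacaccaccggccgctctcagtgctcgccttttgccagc
Dkk2: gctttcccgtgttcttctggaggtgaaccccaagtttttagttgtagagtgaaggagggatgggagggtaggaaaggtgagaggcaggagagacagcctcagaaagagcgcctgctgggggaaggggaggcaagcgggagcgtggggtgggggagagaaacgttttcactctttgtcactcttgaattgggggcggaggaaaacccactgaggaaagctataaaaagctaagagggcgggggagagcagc
Sfrp2 and Frat1 each held 2 TTGGC motifs, those of Sfrp2 at 83 to 79 and 32 to 28 bases before the start. Wif1 held 1 CACGTG and Dkk2 none of the 3 motifs in this window. Of the 7 genes with a promoter in the table, Frzb also held 1 TTGGC motif and a CTTTGA. Tcf7l2, whose Nfib arrays also lay above the controls in both lines, is not printed. It held 1 TTGGC motif in each of its 2 windows. No window of these genes, that of Sfrp2 included, held TTGGC motifs as an inverted pair 5 bases apart. Of 32851 promoters of this length, 41.5% held TTGGC, 6.02% CACGTG and 13.8% CTTTGA, and 12 promoters held such an inverted pair. These matches are a description of the sequence, and whether any of them is bound was not tested.

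Counted over both lines, limma placed 3 of the 9 genes past an adjusted p of 0.05 as higher in Nfib than in control cells, Sfrp2, Frat1 and Dkk3. The background was 4.95% of 8774 genes higher and 4.79% lower, and since the 9 were selected on such values nothing is read from the count. The median difference of the 9 was 0.87, beside 0.03 over all genes. Dkk3 did not pass without the doubted arrays (difference 1.30), and it also did not pass when any of 9 single arrays was left out. In 5 of the 9 genes (Sfrp2, Dkk3, Wif1, Frat1 and Tcf7l2) the Nfib arrays lay above the controls in both lines, and in none did they lie below in both, against 13% of all genes above and 10.4% below. Wif1 is counted there although its 3583T3 values were under log2 4.

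For Mycl1 against control, Frat1 alone passed, and it did not when any of 7 single arrays was left out. The background was 6.35% higher and 4.54% lower, and the median difference of the 9 was -0.17. For both vectors against control, Sfrp2 passed as higher (1.45 ± 0.11) and Fzd7 as lower (-0.73 ± 0.19), where 16.1% of all genes were called higher and 14.5% lower. Sfrp1, Dkk2 and Dkk3 lay on opposite sides of the controls in the lines in that comparison, as did 6.49% of all genes. These comparisons share their control arrays with the Nfib comparison.

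When Nfib was added to Mycl1 cells, Sfrp2 alone passed, with a background of 1.6% higher and 1.76% lower. When Mycl1 was added to Nfib cells, Fzd7, Wif1, Frat1 and Tcf7l2 passed as lower, with a background of 8.57% higher and 7.72% lower, and 4 of the 9 genes lay below the Nfib arrays in both lines and 1 above, against 11.6% and 13.3% of all genes. Wif1 entered the fit only through the 3151T4 Nfib arrays it is lower against, and without either of them it was not fitted. None of those 4 passed without 3151T4 Nfib+Mycl1 replicate 3 (0 of 9 in limma, 4 at an unadjusted p under 0.05) or without 3151T4 Nfib replicate 4 (0 and 3).

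**Figure D4:**
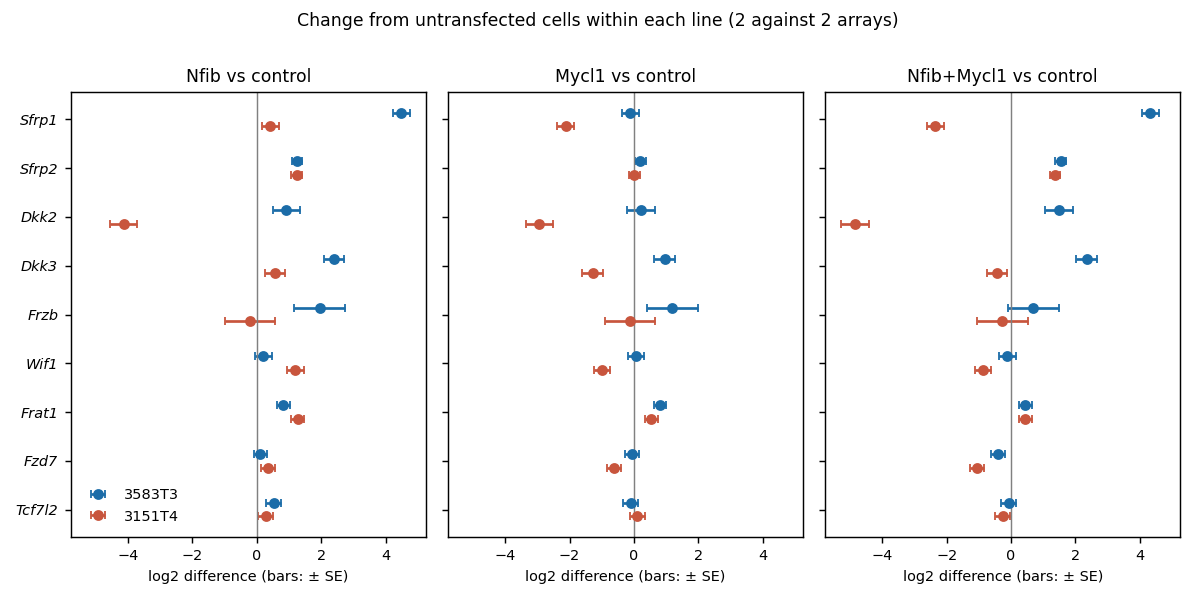
Log2 difference from untransfected cells (horizontal axis; points are differences of 2 against 2 arrays, bars ± SE) of the 9 genes within each line, for each vector group. Sfrp2 and Frat1 have like values in the lines, while Sfrp1, Dkk2 and Dkk3 are higher in 3583T3 and lower in 3151T4 with both vectors.

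Between the lines at equal vector, Dkk3 (2.71 ± 0.31), Wif1 (1.22 ± 0.24) and Sfrp2 (0.25 ± 0.08) passed as higher in 3151T4, and Frzb (-2.03 ± 0.42) and Fzd7 (-0.36 ± 0.14) as lower. The background here was 30.9% of genes higher and 27.6% lower. Wif1 entered this comparison through the same 2 arrays of 3151T4, and its other 14 were under log2 4. Frzb exceeded log2 4 on 6 arrays, all of the other line, and was under it on every 3151T4 array. Each thus entered only through the line where it is higher, and nothing is read from the calls of Wif1 and Frzb. Fzd7 did not pass without the doubted arrays. Fibroblast markers were higher in 3151T4 for 5 of 10 and lower for 1 (limma, adjusted p under 0.05), and 3 of the 4 lung epithelium markers past the filter were lower. The part of these cells in the line differences was not tested.

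The change with a vector was compared between the lines as the 3151T4 change minus the 3583T3 change, and is described here for 3 antagonists. For Sfrp1 this was -4.07 ± 0.37 with Nfib, -2.01 ± 0.37 with Mycl1 and -6.68 ± 0.37 with both vectors. For Dkk2 it was -5.06 ± 0.61, -3.15 ± 0.61 and -6.33 ± 0.61. For Dkk3 it was -1.83 ± 0.45, -2.23 ± 0.45 and -2.78 ± 0.45. For Frzb it was -2.16 with Nfib, on the doubted arrays (-0.63 without them). Limma placed Sfrp1, Dkk2 and Dkk3 past its threshold in each contrast, from which nothing is read since the genes were chosen on such values. The backgrounds were 3.89% higher and 2.58% lower for Nfib, 0.684% and 1.11% for Mycl1, and 1.57% and 4.1% for both vectors. Dkk3 did not pass for Nfib without the doubted arrays (-1.43). For Mycl1, none of the 9 passed without 3583T3 control replicate 1, 3583T3 Mycl1 replicate 1, 3151T4 control replicate 3 or 3151T4 Mycl1 replicate 3 (0 in limma, 4 or 5 at an unadjusted p under 0.05).

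The rest of the pathway was read from 106 genes in 7 lists by role, of which 93 were measured and 61 passed the filter. These lists were chosen with earlier results of these data known, which limits the tests below. Past the filter were 7 of 21 ligands and secretion factors, 14 of 21 receptors and R-spondins, 2 of 12 other antagonists, 17 of 20 cytoplasmic components, 9 of 12 TCF/LEF factors and cofactors, 6 of 11 feedback and target genes, and 6 of 9 planar polarity genes. Among the feedback genes, Axin2 reads out beta-catenin activity in many tissues. Its 3583T3 values were 4.76 and 5.26 in controls, 5.14 and 4.87 with Nfib, 4.47 and 4.53 with Mycl1, and 4.69 and 5.83 with both. In 3151T4 they were 4.14 and 4.35, 5.38 and 6.16, 3.39 and 3.88, and 3.03 and 3.88 in the same order. In 3151T4 it was higher with Nfib than in controls (1.52 ± 0.38, limma adjusted p = 0.0175) and lower with both vectors than with Nfib (-2.31 ± 0.38, adjusted p = 0.000722). Over both lines these differences were 0.76 ± 0.42 (adjusted p = 0.327) and -1.02 ± 0.42 (adjusted p = 0.103), and none of its vector comparisons over both lines passed. Axin2 was chosen for display after its values were seen, so its p-values within 3151T4 are a description and nothing is read from them.

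With the Nfib vector against control, 8 of the 61 genes passed in limma, 4 higher and 4 lower, or 6.56% each way, near the 4.95% higher and 4.79% lower of all genes. The median of the 61 was -0.01 beside 0.03 over all genes. Among the receptors, Fzd8 rose (1.38 ± 0.31, adjusted p = 0.0111) and Lgr6, an R-spondin receptor, fell (-1.52 ± 0.28, adjusted p = 0.00304). Lgr6 exceeded log2 4 only on control and Mycl1-alone arrays. It thus entered the fit only through groups where it is higher, and nothing is read from its call. Among the antagonists Sfrp4 fell (-2.39 ± 0.52, adjusted p = 0.0102), by -4.14 ± 0.31 in 3151T4 and -0.63 ± 0.31 in 3583T3, while its relative Sfrp2 read higher in both. Dact1, a Dishevelled-binding modulator, fell (-2.30 ± 0.42, adjusted p = 0.0029). The Sfrp4 and Dact1 values of 3151T4 controls were 9.35 and 9.85, and 8.67 and 9.14, against 5.47 and 5.45, and 5.73 and 5.50, with Nfib.

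Of the feedback genes, Rnf43, a ubiquitin ligase that removes Frizzled receptors, fell (-1.20 ± 0.23, adjusted p = 0.00371) and Apcdd1, a membrane inhibitor of Wnt signalling, rose (0.70 ± 0.14, adjusted p = 0.00535). Rnf43 in 3583T3 was 7.46 and 7.30 in controls, 6.12 and 5.59 with Nfib, 8.03 and 7.03 with Mycl1, and 6.16 and 6.12 with both. All 4 Nfib-carrying arrays of 3583T3 were below the 4 others, whereas in 3151T4 Rnf43 read under log2 4 on every array. The corepressor Tle3 rose (0.58 ± 0.12, adjusted p = 0.00575), as did Celsr2, a planar polarity cadherin (0.50 ± 0.14, adjusted p = 0.0381). Celsr2 lost its call when any of 7 single arrays was left out, with values of 0.41 to 0.54, and the other 7 kept theirs without each array in turn. The count without the doubted arrays was 13 of 61, 9 higher and 4 lower, and without 3583T3 Nfib replicate 2 alone 13 passed. Macrophage and leukocyte markers were lower for 9 of 10, and their part in these changes was not tested.

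**Figure D5:**
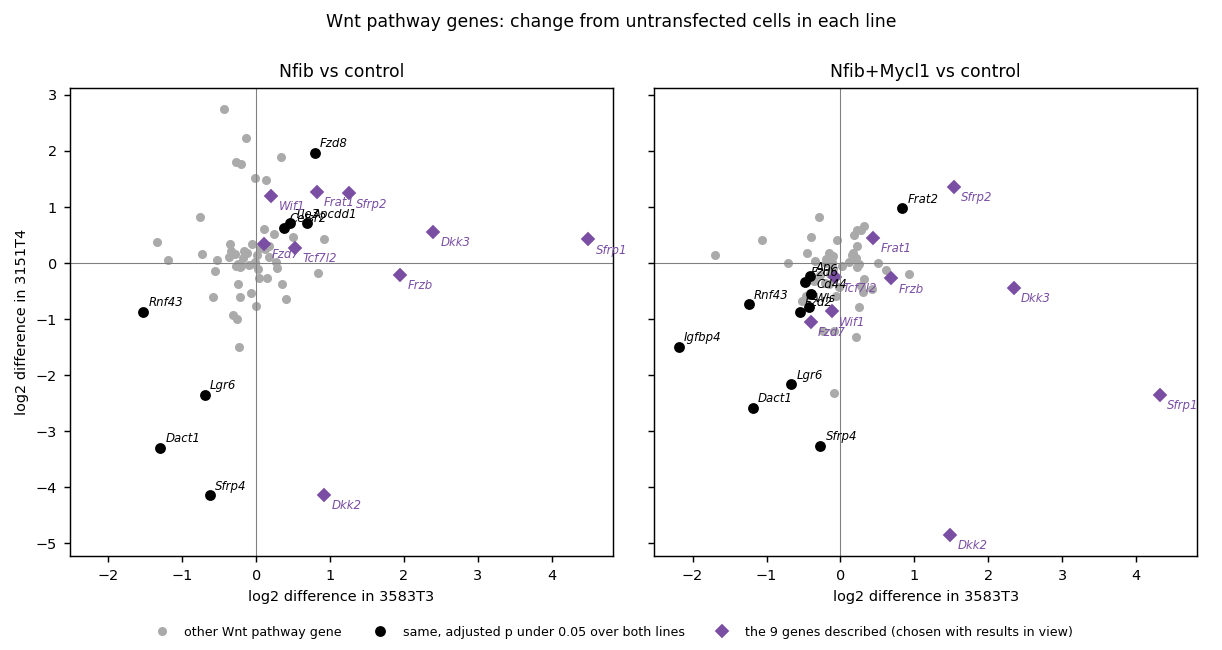
Log2 difference from untransfected cells in 3583T3 (horizontal axis) and in 3151T4 (vertical axis) for the 61 other Wnt pathway genes past the filter and the 9 genes described, with Nfib (left) and with both vectors (right). Black points are the pathway genes past an adjusted p of 0.05 in limma over both lines, 8 on the left and 11 on the right.

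Adding Nfib to Mycl1 cells changed 3 of the 61 genes, 1.64% higher and 3.28% lower beside 1.6% and 1.76% of all genes. Of the macrophage and leukocyte markers 0 of 10 passed in limma (1 at an unadjusted p under 0.05, median -0.26), and their part was not tested. Rnf43 fell (-1.19 ± 0.23, adjusted p = 0.012), Apcdd1 rose (0.74 ± 0.14, adjusted p = 0.012) and the receptor Fzd3 fell (-0.92 ± 0.20, adjusted p = 0.0266). Rnf43 and Apcdd1 kept their calls without each array in turn and without the doubted arrays. Fzd3 was lost without the doubted arrays (-0.81) and without any of 5 single arrays (-0.95 to -0.79). Without 3583T3 Mycl1 replicate 1, 5 genes passed.

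With Mycl1 against control 5 of the 61 passed, 2 higher and 3 lower, with a median of -0.06. These are 3.28% and 4.92%, beside 6.35% and 4.54% of all genes. Wnt5a, a ligand of the non-canonical branch, fell (-1.67 ± 0.41, adjusted p = 0.0259), and so did the receptor Fzd4 (-0.87 ± 0.26, adjusted p = 0.045) and Apcdd1 (-0.47 ± 0.14, adjusted p = 0.0466). Fzd3 rose (0.81 ± 0.20, adjusted p = 0.0269), as did Celsr1 (0.60 ± 0.15, adjusted p = 0.0282). Each of these limma calls was lost when any of at least 5 single arrays was left out. Leaving out 3583T3 control replicate 1, 3583T3 Mycl1 replicate 1 or 3151T4 control replicate 4 left 0 calls in limma, with 16, 15 and 12 genes at an unadjusted p under 0.05. The count was 1 without 3151T4 control replicate 3 or 3151T4 Mycl1 replicate 4, 2 without 3583T3 control replicate 2 or 3151T4 Mycl1 replicate 3, and 3 without 3583T3 Nfib+Mycl1 replicate 1 or 3151T4 Nfib+Mycl1 replicate 4. It was 8 without the doubted arrays. All 10 macrophage and leukocyte markers were lower, and their part was not tested.

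With both vectors against control 11 of the 61 passed, 10 lower and 1 higher, with a median of -0.11. The 16.4% lower is near the 14.5% of all genes, and the 1.64% higher is below the 16.1%. Besides Dact1 (-1.88 ± 0.42), Lgr6 (-1.41 ± 0.28), Rnf43 (-0.99 ± 0.23) and Sfrp4 (-1.76 ± 0.52), the secreted inhibitor Igfbp4 (-1.84 ± 0.39, adjusted p = 0.0042) and Wls, which carries Wnt proteins to the surface (-0.60 ± 0.13, adjusted p = 0.00543), fell. The receptors Fzd2 (-0.71 ± 0.16) and Fzd6 (-0.41 ± 0.14), the scaffold Apc (-0.32 ± 0.11) and Cd44 (-0.47 ± 0.13) fell, and Frat2, the relative of Frat1, rose (0.91 ± 0.27, adjusted p = 0.0226). Dact1, Lgr6, Rnf43, Igfbp4, Wls and Fzd2 kept their limma calls without each array in turn. Lgr6 entered this fit too only through control and Mycl1-alone arrays, so nothing is read from its call. Without 3151T4 Nfib+Mycl1 replicate 3 the count was 6, and without 3151T4 control replicate 4 it was 7. All 10 macrophage and leukocyte markers were lower here too, with their part not tested.

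Adding Mycl1 to Nfib cells changed 8 of the 61, 7 lower and 1 higher, with a median of -0.16 beside -0.02 over all genes. These are 11.5% lower and 1.64% higher, beside 7.72% and 8.57% of all genes. Fzd8 (-1.13 ± 0.31), Igfbp4 (-1.27 ± 0.39), Celsr2 (-0.52 ± 0.14), Wls (-0.49 ± 0.13), Apcdd1 (-0.44 ± 0.14), Tle3 (-0.41 ± 0.12) and Cd44 (-0.41 ± 0.13) fell, and Celsr1 rose (0.47 ± 0.15), at limma adjusted p of 0.0272 to 0.0482. None of the 8 kept its call without each array in turn. The limma count was 0 without 3151T4 Nfib replicate 4 or without 3151T4 Nfib+Mycl1 replicate 3, with 11 and 10 at an unadjusted p under 0.05. It was 1 without 3151T4 Nfib replicate 3 or 3151T4 Nfib+Mycl1 replicate 4, 2 without 3583T3 Nfib replicate 1, 3 without 3583T3 Nfib+Mycl1 replicate 1, and 5 without 3151T4 Mycl1 replicate 3 or either 3583T3 control. Without the doubted arrays it was 16, 2 higher and 14 lower.

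Between the lines 35 of the 61 pathway genes differed, 18 higher and 17 lower in 3151T4, or 29.5% and 27.9% beside 30.9% and 27.6% of all genes. The change with Nfib differed between the lines in 11 of the 61 genes, 8 more positive in 3151T4 and 3 more negative, or 13.1% and 4.92% beside 3.89% and 2.58% of all genes. Among the 11, Wnt16 passed the filter only through the 3583T3 controls and Fzd9 only through vector arrays of 3151T4. Lgr6 passed it only through control and Mycl1-alone arrays, and the shares are limited by such genes. Lrp5, the Wnt co-receptor, was 5.22 and 5.13 in 3151T4 controls and 7.88 and 7.97 with Nfib, against 7.14 and 7.15 and then 7.05 and 6.38 in 3583T3. Its difference between lines was 3.19 ± 0.38 (limma adjusted p = 0.000184). Fzd9 (2.36 ± 0.32) and Tcf7l1 (2.09 ± 0.34) also changed more positively in 3151T4, with Nfib values there of 5.40 and 5.94, and of 8.60 and 8.63. Fzd9 read under log2 4 on every 3583T3 array and on the 3151T4 controls, so its value in 3583T3 is limited by dim signals. The 3151T4 cells with Nfib thus read higher for a co-receptor, 2 Frizzled receptors (Fzd8 and Fzd9) and a TCF factor, and lower for Sfrp4 and Dact1. They also read lower for the agonist Rspo2 (means 7.29 in controls, 5.79 with Nfib) and the R-spondin receptor Lgr6 (5.37 and 3.02). Of the antagonists among the 9 genes, Sfrp2, Dkk3 and Wif1 read higher there and Dkk2 lower, so no single direction is read from these genes. Without 3583T3 control replicate 2 the count was 7.

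For Mycl1 2 of the 61 differed between the lines, Sfrp4 and the ligand Wnt5b, both more negative in 3151T4 (3.28% beside 1.11% of all genes). Wnt5b was 5.93 and 6.12 in 3151T4 controls and 4.33 and 4.62 with Mycl1, while it read under log2 4 on every 3583T3 array. The count was 0 in limma without 3583T3 control replicate 1, 3151T4 Mycl1 replicate 3 or 3151T4 control replicate 4 (5, 8 and 7 at an unadjusted p under 0.05), and 4 without either 3583T3 Nfib array. It was 1 without 3151T4 control replicate 3, 3151T4 Mycl1 replicate 4, 3583T3 control replicate 2, 3583T3 Mycl1 replicate 1 or any of the 4 Nfib-carrying arrays of 3151T4, and 5 without the doubted arrays. For both vectors 6 differed, 5 more negative in 3151T4 (8.2% beside 4.1% of all genes), among them the secreted agonist Rspo2 (-2.22 ± 0.40, limma adjusted p = 0.00405). Rspo2 read 7.31 and 7.26 in 3151T4 controls and 4.89 and 5.06 with both vectors. On every 3583T3 array it read under log2 4, so a fall could hardly appear there. Wnt16 and Wnt5b, also among the 6, each exceeded log2 4 in 1 line only, which limits this count.

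For each of the 9 genes the 2 genes with the most similar profile over 16 arrays were taken among 8621 others by Pearson correlation, as a description of arrays that share lines and vectors. Sfrp2 was closest to Sorl1 and Hivep3 (r = 0.93 for each), and Sfrp1 to Lgals3bp and Rtp4 (0.90 for each). Dkk3 was closest to Irs1 and Unc5c (0.97 for each), Wif1 to Rgs3 and Slc27a1 (0.96 for each), Frzb to Gria3 (0.93) and Nfatc4 (0.92), and Fzd7 to Shisa5 (0.94) and Bcl6 (0.91). Dkk2 was closest to Tmeff2 (0.87) and Mgll (0.84), Tcf7l2 to Elovl5 (0.87) and Cnot6l (0.85), and Frat1 to Acaa2 and Map3k8 (0.79 for each). Among the 9 themselves, Sfrp1 and Sfrp2 correlated at 0.60 and Dkk3 and Wif1 at 0.78.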

How the data were processed

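Total RNA (100 ng, amplified and biotin-labelled, per the labels' protocols) of 16 samples was hybridised to Affymetrix arrays. The deposited values are log2 signals, as judged from their range, and the submitters' processing notes name R 2.11.0 and GCRMA 2.20.0, which subtracts background by probe sequence and normalizes across arrays. The number of arrays limits precision. Of 22690 probe sets, 64 controls were left out. The 15799 that exceeded log2 4 on at least 2 arrays were fitted in limma 3.58.1 (R 4.3.3) with a mean-variance trend and Benjamini-Hochberg adjustment over all of them. Vector comparisons and the line used vector plus line (11 residual degrees of freedom), and values within or between lines used 8 group means (8). A gene stands for its brightest probe set with 1 symbol. Named genes are the 9 genes, every other Wnt pathway gene called in a vector comparison, and the 2 genes most correlated with each of the 9. Axin2 was named outside this rule, after its values were seen. The 9 genes, the pathway lists and the marker lists were chosen with earlier results of these data known. Dim signals understate fold changes. Promoters are RefSeq GRCm38.p6 and were found for 7 of the 9 genes. The fit was tested on simulated data. Alternatives were other filters, normalizations and models, a replicate block, averaged replicates and arrays left out.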

Additional observations from a re-analysis of the deposited data

Results flagged for a closer look

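The change with a vector differed between the lines, by the limma test of the difference itself (3151T4 change minus 3583T3 change, log2, adjusted p under 0.05), in the following pathway genes. With Nfib it was more positive in 3151T4 for Lrp5 (3.19), Fzd9 (2.36), Tcf7l1 (2.09), Celsr3 (1.97), Wnt16 (1.71), Tle2 (1.55), Bcl9l (1.35) and Fzd8 (1.18), and more negative for Sfrp4 (-3.51), Dact1 (-1.99) and Lgr6 (-1.65). Wnt16 passed the filter only through the 2 control arrays of 3583T3 (4.42 and 4.56), and all 8 arrays of 3151T4 were under log2 4, so its values here follow from that group. Bcl9l and Fzd8 lost the call without the 2 doubted arrays (1.10 and 1.05). With Mycl1 it was more negative for Sfrp4 (-2.02) and Wnt5b (-1.70). With both vectors it was more negative for Sfrp4 (-2.98), Rspo2 (-2.22), Wnt5b (-1.53), Lgr6 (-1.48) and Dact1 (-1.39), and more positive for Wnt16 (1.84). Sfrp4 appears in all 3 contrasts, which share control arrays. Fzd9, Rspo2 and Wnt5b read under log2 4 on every 3583T3 array, so their differences rest on the 3151T4 values. Lgr6 exceeded log2 4 only on control and Mycl1-alone arrays, so its values with Nfib are limited by dim signals.

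Among the 9 genes, every vector array lay on one side of the control mean in 1 line and on the other side in the other line in some cases, and no test is read from these because the genes were chosen on such values. They were Sfrp1 with both vectors (-6.68), Dkk2 with Nfib (-5.06) and with both (-6.33), Dkk3 with Mycl1 (-2.23) and with both (-2.78), and Frzb with Nfib (-2.16) and with Mycl1 (-1.31). Frzb rests on signals under log2 4 in 3151T4 and on replicates far apart in 3583T3.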

How the results depend on the processing

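No named value that had passed the threshold changed its direction under any alternative run. Of 79 calls of named genes, 41 held without each array in turn, 21 were lost with the replicate block and 8 without the 2 doubted arrays. With replicates averaged 45 were lost, all in the vector and line comparisons, since the differences between lines were not refitted there. Of the vector calls, only those of Sfrp2 for Nfib and for both vectors against control were kept with replicates averaged. Whether replicate numbers pair the samples could not be decided. Of 12 pairs of groups, 5 had same-numbered deviations correlated over 0.1 (-0.72 to 0.29). The -0.72 was between 3583T3 Nfib and 3583T3 Nfib+Mycl1, the groups that hold the doubted arrays. In 3151T4 the values were -0.07 to 0.29. With the replicate block, counts called (9 genes, pathway) were 0 and 3 for Mycl1 against control (1 of the 9 at an unadjusted p under 0.05) and 2 and 3 for both vectors against Nfib, and 1 pathway gene for the Mycl1 difference between lines. No block could be fitted for the line comparison, since numbers lie within lines. With no filter, pathway counts were 3 for Mycl1 against control and 4 for both vectors against Nfib, and with no trend the latter was 5. With a filter at log2 6, counts of the 9 were 0 for Mycl1 (also 0 at an unadjusted p under 0.05, since Frat1 did not enter), 2 for both against Nfib and 3 for the lines, and pathway counts were 1 and 3 for the Mycl1 and combined differences between lines. With 8 group means, counts (9 genes, pathway) were 6 and 18 for Nfib, 3 and 16 for Mycl1, 7 and 19 for both vectors against control, 3 and 13 for both against Mycl1, and 17 pathway genes for both against Nfib, a fit whose residual spread leaves out changes that differ between the lines. With replicates averaged (8 samples, limma) they were 1 and 0 for Nfib, 0 and 0 for Mycl1, 1 and 0 for both vectors, 0 and 0 for both against Mycl1 and 0 and 0 for both against Nfib. At an unadjusted p under 0.05 those were 3 and 9, 1 and 11, 2 and 10, 1 and 6, and 2 and 9. Without the doubted arrays pathway counts were 13 for Nfib, 8 for Mycl1, 16 for both against Nfib and 5 for the Mycl1 difference between lines. With 1 array left out, counts (9 genes, then pathway) ranged over 2 to 3 and 7 to 13 for Nfib, 0 to 1 and 0 to 7 for Mycl1, 2 to 3 and 6 to 14 for both vectors, 1 to 1 and 2 to 5 for both against Mycl1, 0 to 4 and 0 to 11 for both against Nfib, and 4 to 5 and 31 to 38 for the lines. For the differences between lines they ranged over 2 to 4 and 7 to 13 (Nfib), 0 to 3 and 0 to 4 (Mycl1), and 3 to 3 and 4 to 7 (both). A lone array left in a group was assumed to vary like the others. Other normalizations and 1 probe set per gene kept each count within 1.5 times. The causes of the other shifts were not tested. Signals near log2 4, as for Wif1, Frzb, Frat1 and Lgr6, limit what these arrays resolve.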
